A study of Rattus norvegicus with 288 samples.

Results

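Oxaliplatin is a platinum drug that binds DNA. Described here is the liver of rats killed 6 h after dosing with it and an oral vehicle was complete. The members are the liver arrays whose labels give 6 h and, as the oral dose, sterile water or F68/PG/PEG400, a solvent made with the surfactant Pluronic F68 (F68 from here on). They are 16 of the 288 arrays of the series, 1 array for each rat. Of these rats 8 had received oxaliplatin and 8 its vehicle, 5% dextrose in water (D5W), with 4 rats for each infusion and oral vehicle. The effect is the mean of the difference with water and the difference with F68.

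All rats were male Sprague-Dawley rats of 8 weeks. Oxaliplatin was infused at 15 mg/kg and D5W in its place, both into a vein over 30 min, and the oral dose followed 30 min later. The wider study also gave sunitinib or sorafenib, 2 inhibitors of receptor kinases, and sampled heart and kidney and the times 1 and 24 h. Water and sunitinib rats were dosed on one day and F68 and sorafenib rats on another, so neither the vehicles nor the inhibitors can be told apart from the dosing day. Each infusion contrast lies within a vehicle and a day. The labels name no tumour graft and no altered gene.

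Platinum adducts on DNA can block both replication and transcription, and cells answer with repair and with the p53 pathway. p53 is a transcription factor that is held down by Mdm2 and, once freed, switches on genes for cell cycle arrest, DNA repair and cell death. Hepatocytes make up most of the liver's mass and carry out its metabolism, while sinusoidal endothelial cells line its capillaries and Kupffer cells are its resident macrophages. In whole liver RNA, fewer cells of a type and less RNA per cell cannot be told apart.

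The 16 arrays carried liver RNA by their markers: the median of the hepatocyte markers lay between 14.67 and 14.81 on the log2 scale, that of heart markers between 4.98 and 5.37 and that of kidney markers between 5.62 and 5.92. None of the 2 arrays in the series whose markers went against their tissue label was among the 16. The 3′ to 5′ log2 difference of the beta-actin control, which rises when RNA is degraded, had a median of 0.80 after D5W and 0.84 after oxaliplatin, with overlapping ranges. One control rat stood apart. In the rat named D5W then F68 replicate 4 the mean level of the macrophage markers was 10.17, against 9.09 to 9.42 in the other 7 controls. Its mean for lymphocyte markers was 8.31, against 7.01 to 7.33 in those 7. Results on immune markers are therefore given with and without this rat.

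Of 11620 genes tested, 1208 (10.4%) passed limma's moderated test with a Benjamini-Hochberg adjusted p under 0.05. They were 781 higher (6.72%) and 427 lower (3.67%) after oxaliplatin. Most changes were small: 7 genes rose and 13 fell at least 2-fold. The 8 treated rats lay wholly above the 8 controls in 70 genes (0.602%) and wholly below them in 61 (0.525%). The split between rises and falls depended on the scaling. With each array centred on its median, 544 genes were higher and 709 lower, and after a new quantile normalization of the liver arrays the counts were 686 and 519.

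**Figure D1:**
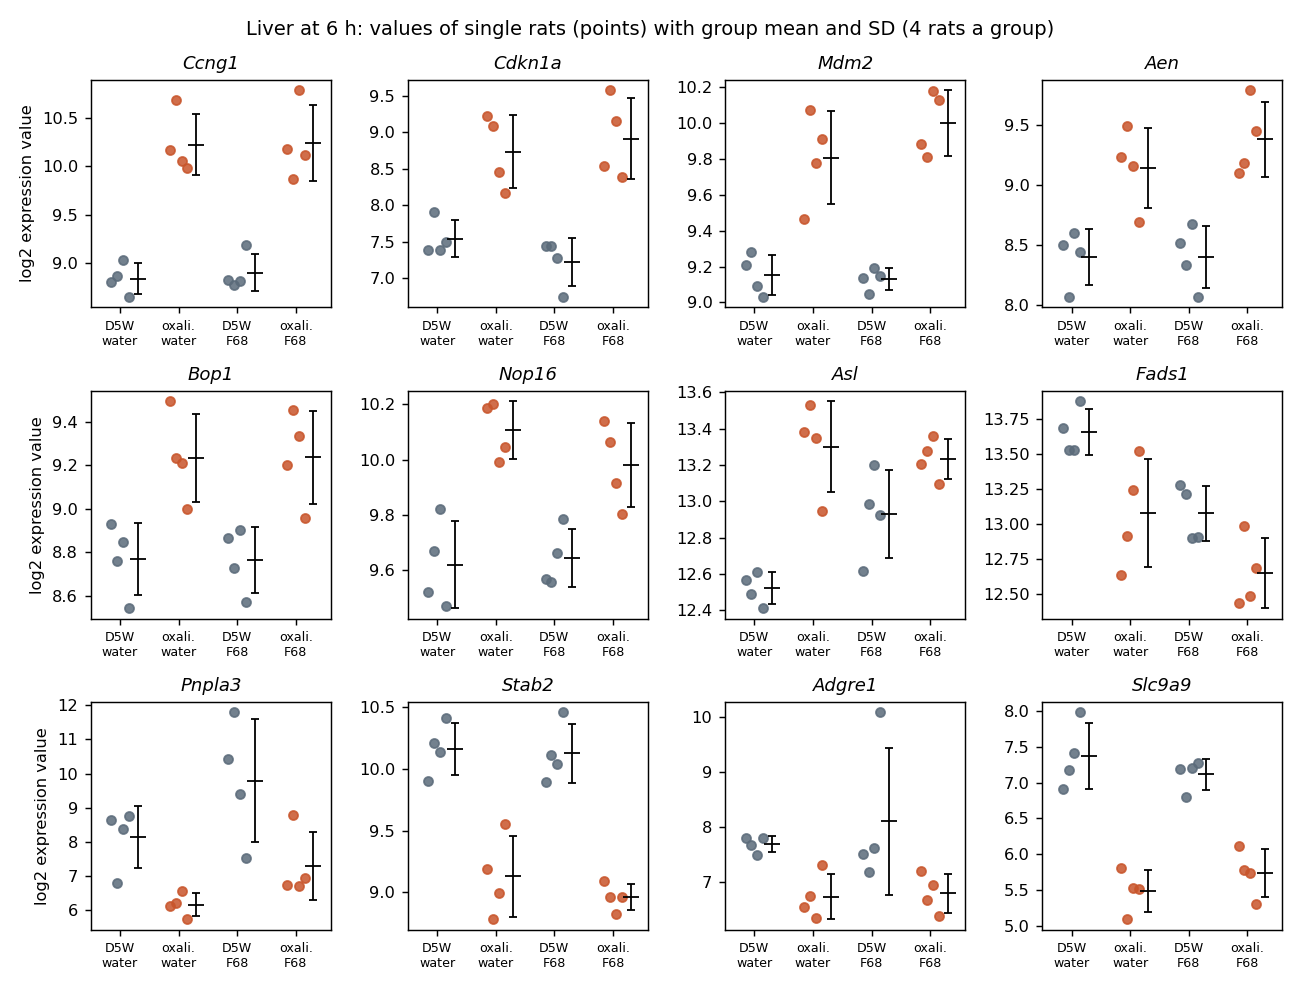
Log2 expression values of 12 genes in liver at 6 h, with 1 point for each rat, D5W in grey and oxaliplatin in orange, and the mean and SD of each group of 4 rats beside its points. The rats given oxaliplatin lie wholly above the controls for Ccng1, Cdkn1a, Mdm2, Aen and Bop1 and wholly below them for Stab2 and Slc9a9, while 1 control rat lies far above the others for Adgre1.

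Genes that p53 is known to switch on were among the clearest rises. Of 22 targets tested, 7 rose (31.8%, beside 6.72% of all genes) and 1 fell, and the median difference over the list was 0.22 log2, beside 0.01 over all genes. The 7 were Cdkn1a, which encodes the cell cycle inhibitor p21, Ccng1 (cyclin G1), Phlda3 (an inhibitor of Akt signalling), Aen (a nuclease linked to cell death), Mdm2 (p53's own inhibitor), Zmat3 (an RNA-binding protein) and Pidd1 (a platform for caspase-2).

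Ccng1 had the smallest p of all genes tested. Its log2 value ran from 8.65 to 9.19 with a median of 8.82 in controls, and from 9.87 to 10.78 with a median of 10.14 after oxaliplatin. The arms did not overlap, and the rise was 1.36 ± 0.10 log2 (2.56-fold, ± is the standard error throughout, limma adjusted p = 7.3e-18). Cdkn1a ran from 6.74 to 7.91 in controls (median 7.41) and from 8.17 to 9.58 after oxaliplatin (median 8.81). It rose by 1.44 ± 0.19 log2 (limma adjusted p = 4.93e-08), again without overlap.

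Mdm2 lay between 9.03 and 9.28 in controls (median 9.14) and between 9.46 and 10.18 after oxaliplatin (median 9.90), a rise of 0.76 ± 0.08 log2 (limma adjusted p = 9.89e-11). Every treated rat was above every control. Aen rose by 0.86 ± 0.11 log2, from a median of 8.47 (8.07 to 8.67) to 9.21 (8.69 to 9.79), and Phlda3 by 0.89 ± 0.14 log2, from 9.38 (9.21 to 9.79) to 10.24 (9.79 to 11.09). Both were without overlap, though the nearest rats of the Phlda3 arms had almost the same value. Zmat3 and Pidd1 rose by 0.34 and 0.31 log2 with overlap between arms. The target that fell was Sesn1, a stress-induced inhibitor of mTORC1, at -0.29 ± 0.10 log2 (limma adjusted p = 0.0365), a call that was lost when any of 8 of the 16 rats was left out.

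Because these genes moved together, the promoters of the 3 with the largest rise that hold a p53 half-site before their start are shown. The half-site is the 10-base unit that p53 recognises in pairs. It reads the same way on both strands, and its match is in capitals. Each sequence covers the 250 bases before the annotated start, 5′ to 3′ on the gene's strand, from RefSeq on rat build GRCr8. Cdkn1a lies at chr20:7150682-7150931 on the plus strand, Ccng1 at chr10:25684877-25685126 on the minus strand and Aen at chr1:142224283-142224532 on the plus strand.
Cdkn1a: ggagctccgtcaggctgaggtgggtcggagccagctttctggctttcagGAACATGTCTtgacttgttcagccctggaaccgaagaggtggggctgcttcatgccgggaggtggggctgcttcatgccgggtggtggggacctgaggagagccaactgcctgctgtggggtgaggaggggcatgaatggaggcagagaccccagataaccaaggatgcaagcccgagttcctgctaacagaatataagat
Ccng1: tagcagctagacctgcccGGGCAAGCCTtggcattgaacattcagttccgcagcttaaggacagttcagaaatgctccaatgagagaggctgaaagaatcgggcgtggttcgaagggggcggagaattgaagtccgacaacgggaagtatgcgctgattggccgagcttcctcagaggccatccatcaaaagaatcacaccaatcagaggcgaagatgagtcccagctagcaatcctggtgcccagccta
Aen: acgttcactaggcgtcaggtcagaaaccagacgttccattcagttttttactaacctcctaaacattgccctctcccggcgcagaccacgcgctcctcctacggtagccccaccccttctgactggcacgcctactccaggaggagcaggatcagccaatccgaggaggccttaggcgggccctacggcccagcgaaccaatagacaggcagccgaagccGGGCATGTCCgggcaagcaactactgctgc
The match begins 201 bases before the start in Cdkn1a, 232 in Ccng1 and 30 in Aen. Over the full window of 300 bases in the table, with 50 bases after the start, 4 of the 6 targets that rose and have a window held a match (66.7%), as did the window of Sesn1, the target that fell, and 2 of the 11 targets that did not pass. Among all 27457 promoter windows 7.89% held one, and the share was 6.93% among the genes called higher and 10.2% among those called lower. A match is a likeness in letters and not a measured binding site.

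Genes of ribosome biogenesis had the largest share of rises among the lists with at least 7 members tested. The list covers RNA polymerase I, which makes ribosomal RNA, and the factors that cut, modify and assemble it in the nucleolus. Of 45 members tested, 27 rose (60%) and 0 fell, and the fitted difference was above 0 in all 45. The median was 0.25 log2, and it was 0.22 with each array centred on its median. In that setting 22 members rose and 0 fell, beside 544 and 709 of all 11620 genes.

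The rises were small in size and evenly spread. Bop1, a subunit of the PeBoW complex that processes large-subunit RNA, ran from 8.54 to 8.93 in controls (median 8.80) and from 8.96 to 9.49 after oxaliplatin (median 9.22). The arms did not overlap, and the rise was 0.47 ± 0.07 log2 (limma adjusted p = 2.85e-06). Nop16 rose from a median of 9.62 (9.47 to 9.82) to 10.06 (9.80 to 10.20), by 0.41 ± 0.07 log2 (limma adjusted p = 7.86e-06), with the lowest treated rat just below the highest control.

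Ddx21, a nucleolar RNA helicase, rose by 0.48 ± 0.12 log2, from 8.96 (8.79 to 9.13) to 9.35 (9.22 to 9.92). Mybbp1a, a nucleolar protein that can bind p53, rose by 0.38 ± 0.08 log2, from 9.70 (9.46 to 9.77) to 10.07 (9.81 to 10.29). Neither pair of arms overlapped. Of the polymerase itself, the subunits Polr1a and Polr1b rose by 0.36 and 0.37 log2, and Polr1e by 0.46 ± 0.15 log2 (limma adjusted p = 0.0297), which was 0.77 in water rats and 0.14 in F68 rats. Rrs1 had the largest rise of the list, 0.49 ± 0.15 log2. Leaving out 1 rat at a time left between 17 and 29 members called higher and 0 lower.

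An E-box (CACGTG, which reads the same on both strands) is the sequence bound by Myc and its relatives. It was found in the 300-base windows of 11 of 24 called members (45.8%) and 4 of 17 members that did not pass (23.5%). It was in 6.65% of all windows, 9.38% of those of tested genes and 15.5% of those of genes called higher. The 3 called members with the largest rise and an E-box before the start are shown with it in capitals, as above. Mybbp1a lies at chr10:57555208-57555457 (plus strand), Utp20 at chr7:25102850-25103099 (minus strand) and Ltv1 at chr1:9398558-9398807 (minus strand).
Mybbp1a: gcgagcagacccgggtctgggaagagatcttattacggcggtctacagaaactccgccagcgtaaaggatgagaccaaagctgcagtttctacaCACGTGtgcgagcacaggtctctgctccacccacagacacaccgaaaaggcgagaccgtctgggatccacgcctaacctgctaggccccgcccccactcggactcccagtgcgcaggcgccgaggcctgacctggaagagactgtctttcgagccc
Utp20: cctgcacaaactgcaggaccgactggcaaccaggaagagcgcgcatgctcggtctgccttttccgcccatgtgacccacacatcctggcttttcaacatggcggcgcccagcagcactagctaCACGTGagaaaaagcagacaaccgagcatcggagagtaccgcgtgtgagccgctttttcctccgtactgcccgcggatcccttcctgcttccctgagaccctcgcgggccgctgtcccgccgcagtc
Ltv1: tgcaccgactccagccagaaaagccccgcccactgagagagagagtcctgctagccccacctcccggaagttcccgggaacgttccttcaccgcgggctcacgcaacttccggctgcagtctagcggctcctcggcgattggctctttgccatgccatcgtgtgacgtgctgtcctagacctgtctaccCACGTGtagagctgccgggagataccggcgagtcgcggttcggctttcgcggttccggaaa
The box begins 156, 127 and 61 bases before the start. Utp20 and Ltv1, which act in assembling the small subunit, rose by 0.34 and 0.23 log2. Myc itself was at -0.40 log2 and did not pass the test.

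**Figure D2:**
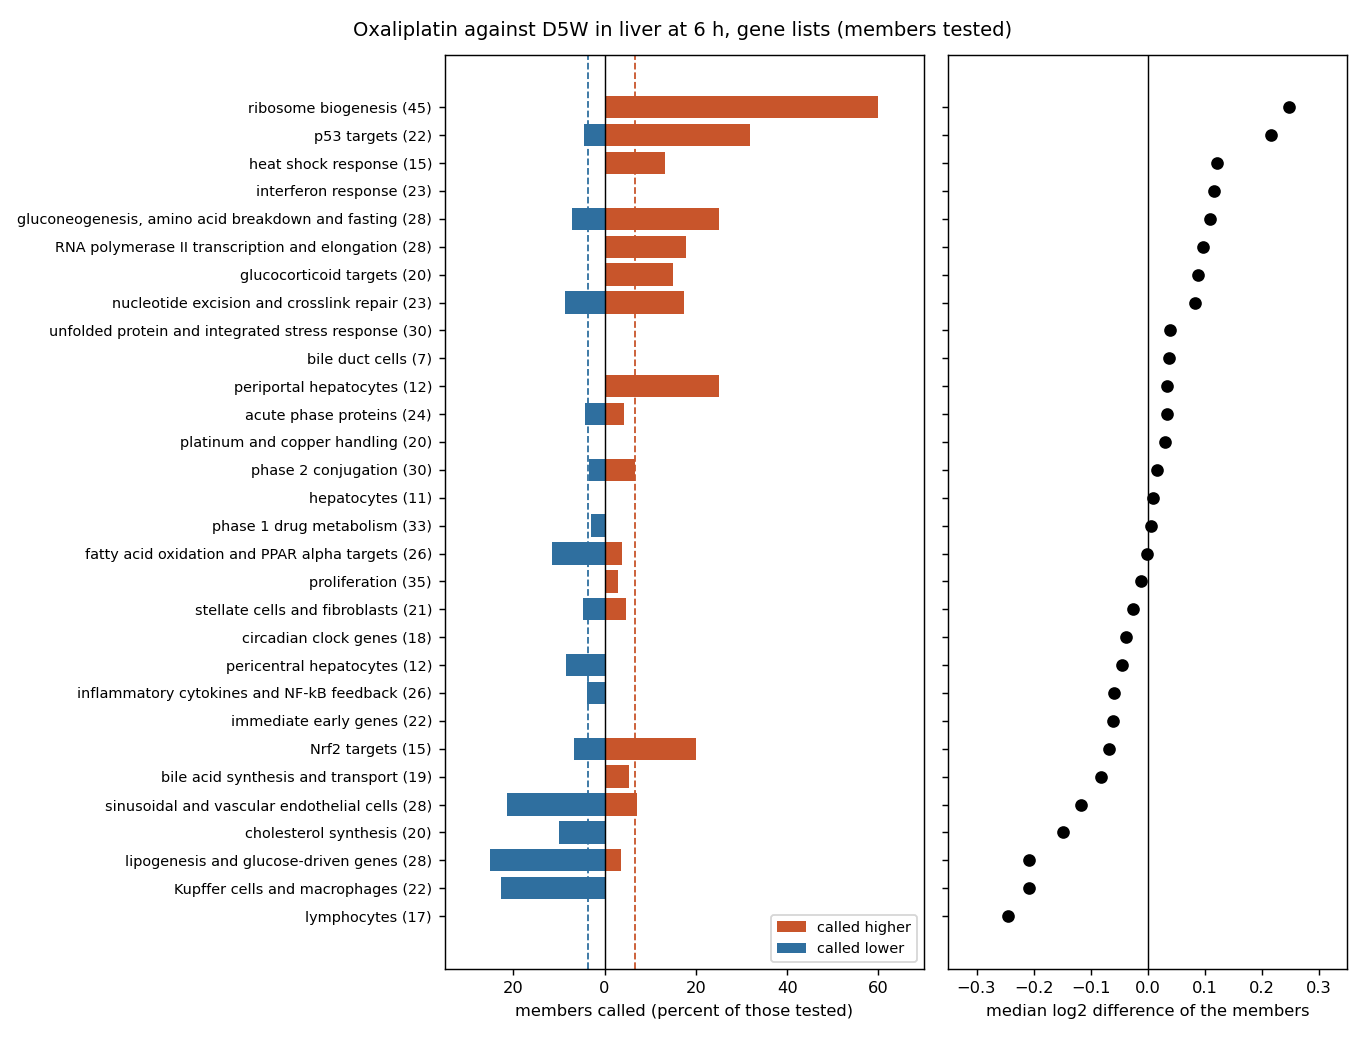
For each gene list with at least 7 members tested, the left panel gives the percentage of members called higher (orange, to the right) and lower (blue, to the left) after oxaliplatin in liver at 6 h, with dashed lines at 6.72% and 3.67%, the shares over all genes tested, and the right panel gives the median log2 difference of the members. Ribosome biogenesis (60% higher) and p53 targets (31.8%) stand highest, and lymphocyte, macrophage and lipogenesis lists have the lowest medians.

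Calls in the rest of the DNA damage and transcription machinery were fewer than among p53 targets or ribosome biogenesis genes. Of 23 genes of nucleotide excision and crosslink repair, 4 rose (17.4%, beside 6.72% of all genes) and 2 fell (8.70%, beside 3.67%). Rpa2, a subunit of the protein that coats single-stranded DNA, rose by 0.36 ± 0.09 log2 (limma adjusted p = 0.0034), from a median of 7.56 to 7.97. Ercc3, a helicase of TFIIH, Ddb1 and Rad23b, both of damage recognition, rose by 0.14 to 0.17 log2, but the call of Ddb1 was lost without any of 13 rats and that of Ercc3 without any of 2. Xpa, which verifies the lesion, fell by 0.22 log2 and Cetn2 by 0.17, and these calls were lost without any of 8 and 7 rats. Of 28 genes of RNA polymerase II and elongation, 5 rose (17.9%, beside 6.72%) and 0 fell. The 5 were Gtf2h1 (TFIIH), Polr2a (the largest subunit), Supt5h, Polr2e and Polr2c, which rose by 0.17 to 0.22 log2.

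Among 15 targets of Nrf2, the regulator of the oxidative stress response, 3 rose and 1 fell. These were 20% and 6.67%, beside 6.72% and 3.67% of all genes. Srxn1, which repairs peroxiredoxins, went from a median of 9.16 (8.82 to 9.50) to 9.62 (9.38 to 10.09), by 0.54 ± 0.11 log2 (limma adjusted p = 0.000624). The arms overlapped by a narrow margin. Gstp1, a glutathione transferase, rose by 0.29 log2 and Txnrd1 by 0.23, and Pgd, an enzyme of the pentose phosphate pathway, fell by 0.41. The call of Txnrd1 was lost without any of 8 rats and that of Pgd without any of 9.

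Several of the larger changes in size lay in genes of fuel metabolism. Sds, serine dehydratase, an enzyme that turns serine into pyruvate, ran from 8.89 to 10.47 in controls (median 9.78) and from 10.25 to 12.76 after oxaliplatin (median 11.56), a rise of 1.80 ± 0.45 log2 (limma adjusted p = 0.00402). The arms overlapped. Got1, an aminotransferase, rose by 0.87 ± 0.20 log2, from a median of 11.47 to 12.67, and the lowest treated rat (12.10) lay below the highest control (12.51). The rise was 1.31 log2 in water rats and 0.43 in F68 rats, and the difference between these did not pass limma's test after adjustment. Asl, of the urea cycle, rose by 0.54 ± 0.10 log2 (limma adjusted p = 0.000152), from 12.61 (12.41 to 13.20) to 13.31 (12.95 to 13.53).

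With Aass, Slc7a2, Tdo2 and Arg1, these made 7 of 28 genes of gluconeogenesis, amino acid breakdown and fasting that rose (25%, beside 6.72% of all genes). The calls of Arg1, Slc7a2 and Tdo2 were lost without any of 10, 7 and 3 rats. The 2 that fell (7.14%, beside 3.67%) were Pdk4, a kinase that blocks glucose oxidation in fasting, by 1.05 ± 0.32 log2, and Pc (pyruvate carboxylase), by 0.25 log2. The call of Pdk4 was lost without any of 6 rats and that of Pc without 1. With each array centred on its median, 4 of the 28 rose and 2 fell, beside 544 and 709 of all 11620 genes.

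Lipogenic and glucose-driven genes went lower. Of 28 tested, 7 fell (25%, beside 3.67% of all genes) and 1 rose, with a median of -0.21 log2 and 25 differences below 0. Pnpla3, a lipid droplet enzyme induced by feeding, had the largest fall of all called genes at -2.24 ± 0.54 log2 (limma adjusted p = 0.00317). It ran from 6.81 to 11.79 in controls (median 8.70) and from 5.74 to 8.79 after oxaliplatin (median 6.63). The arms overlapped, and controls given F68 reached higher than those given water.

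Acacb, the acetyl-CoA carboxylase that restrains fat oxidation, fell by 0.63 ± 0.12 log2 (limma adjusted p = 7.88e-05), from 6.68 (6.26 to 7.19) to 6.08 (5.76 to 6.48). Fads1, a fatty acid desaturase, fell by 0.50 ± 0.10 log2 (limma adjusted p = 0.000189), from 13.41 (12.91 to 13.88) to 12.80 (12.44 to 13.52), and the arms overlapped. Fads2, Elovl5 and Khk fell by 0.21 to 0.46 log2, and the calls of Fads2 and Khk were lost without any of 7 and 3 rats. Rgs16, a regulator of G protein signalling, was at -1.52 ± 0.53 log2 with a limma adjusted p of 0.0484, which was lost on leaving out any of 10 rats. Pnpla2, the triglyceride lipase, rose by 0.30 log2. Taken by vehicle, 3 members were called lower in water rats and 1 in F68 rats, beside 1.63% and 0.706% of all genes.

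Of 20 genes of cholesterol synthesis 2 fell (10%, beside 3.67% of all genes), Pmvk by 0.50 and Sc5d by 0.32 log2. In fatty acid oxidation 1 of 26 rose (3.85%, beside 6.72%) and 3 fell (11.5%). The medium-chain acyl-CoA synthetases Acsm3 and Acsm2 moved apart: Acsm3 was higher by 1.21 ± 0.32 log2 and Acsm2 lower by 1.52 ± 0.38, from 9.53 (9.08 to 10.10) to 7.85 (7.16 to 9.15). The arms overlapped in both.

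Among markers of sinusoidal and vascular endothelium, 6 of 28 fell (21.4%, beside 3.67% of all genes) and 2 rose (7.14%, beside 6.72%). Stab2, a scavenger receptor that clears hyaluronan, ran from 9.90 to 10.46 in controls (median 10.13) and from 8.78 to 9.55 after oxaliplatin (median 8.98). It fell by 1.10 ± 0.11 log2 (limma adjusted p = 1.28e-11), without overlap. Stab1, its relative, fell by 0.44 ± 0.08 log2, from 8.42 (8.28 to 8.57) to 7.95 (7.85 to 8.18). Dnase1l3, a secreted DNase, fell by 0.55 ± 0.09 log2, from 11.40 (11.27 to 11.80) to 10.92 (10.73 to 11.21).

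Stab1 and Dnase1l3 also had no overlap between arms. Ptprb (a vascular phosphatase), Bmp2 (the ligand that sets hepatocyte hepcidin) and Ehd3 fell by 0.36 to 0.40 log2. Esam, a junction protein, and Sox17, a transcription factor, rose by 0.18 and 0.35. The call of Ehd3 was lost without any of 9 rats and that of Esam without any of 3. The mean level of all 28 markers ran from 8.44 to 8.67 in controls and from 8.31 to 8.53 after oxaliplatin, so the arms overlapped as a list. Without the control rat that stood apart, 6 fell and 3 rose, beside 382 and 676 of all 11620 genes.

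Of 22 macrophage markers 5 fell (22.7%, beside 3.67% of all genes) and 0 rose, with 20 below 0 and a median of -0.21 log2. Mrc1, the mannose receptor, which sinusoidal endothelium also expresses, ran from 10.73 to 11.04 in controls (median 10.82) and from 9.93 to 10.64 after oxaliplatin (median 10.27). It fell by 0.59 ± 0.09 log2 (limma adjusted p = 1.8e-06), without overlap. Adgre1, which encodes F4/80, was at -1.13 ± 0.23 log2, and 7 of 8 controls lay between 7.19 and 7.80 while D5W then F68 replicate 4 stood at 10.08.

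Without that rat, Adgre1 fell by 0.80 ± 0.19 and Mrc1 by 0.58 ± 0.09 log2 (limma adjusted p = 0.00323 and 1.15e-05). Cd163, Csf1r and C1qa, called lower with it at -0.34 to -0.51 log2, did not pass without it, at adjusted p = 0.0856, 0.0910 and 0.188. The median over the 22 markers was then -0.08 log2. Lymphocyte markers were all below 0, 17 of 17 with a median of -0.25 log2, and 0 passed limma's test, with 6 of 17 at an unadjusted p under 0.05, beside 24.2% of all genes (the median was -0.09 without that rat). In limma's fit the hepatocyte markers gave 0 calls among 11 and 1 at an unadjusted p under 0.05, and bile duct markers 0 among 7 by either measure. The part of these markers in the results on other genes was not tested.

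The stellate cell gene Reln, which encodes the secreted protein reelin, fell by 0.83 ± 0.08 log2 (limma adjusted p = 9.18e-13), from 10.51 (10.28 to 10.79) to 9.69 (9.52 to 9.94). The arms did not overlap. Of 21 stellate cell and fibroblast markers, Reln was the 1 that fell (4.76%, beside 3.67% of all genes). Timp1 (a protease inhibitor) was the 1 that rose (4.76%, beside 6.72% of all genes), by 0.44 log2.

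Genes that span a long stretch of the genome were called lower more often than short ones. Of 272 tested genes over 300 kb, 70 were lower (25.7%) and 0 higher. The share lower was 10.7% from 100 to 300 kb, 3.29% from 30 to 100 kb, 2.24% from 10 to 30 kb and 1.12% below 10 kb, beside 3.67% of all genes. The share higher went the other way, from 9.01% below 10 kb to 1.96% between 100 and 300 kb. The median span was 92.2 kb for genes called lower, 14.8 kb for those called higher and 22.8 kb for all. Spans came from the GRCr8 gene table, which held 99.6% of the genes tested.

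The long genes included the falls with the smallest p. Slc9a9, an endosomal sodium-proton exchanger of 564 kb, ran from 6.80 to 7.98 in controls (median 7.20) and from 5.09 to 6.12 after oxaliplatin (median 5.63). It fell by 1.64 ± 0.14 log2 (3.11-fold, limma adjusted p = 8.73e-15). Ptprm, a receptor phosphatase of 705 kb, fell by 1.28 ± 0.12 log2, from 6.80 (6.53 to 7.04) to 5.41 (5.00 to 6.14). Neither pair of arms overlapped.

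Prkcb, a protein kinase C of 331 kb, fell by 1.38 ± 0.14 log2, from 8.23 (7.94 to 9.30) to 6.98 (6.62 to 7.48), and Slc8a1, a sodium-calcium exchanger of 324 kb, by 1.04 ± 0.13 log2, from 6.94 (6.47 to 8.23) to 5.93 (5.83 to 6.42). Both were without overlap, as were 29 of the 70 long genes called lower. Of all 11620 genes, 427 were called lower and 61 (0.525%) lay wholly below the controls. Reln spans 427 kb and Stab2 206 kb, while Stab1 spans 30.5 kb, Dnase1l3 26.9 kb and Bmp2 10.8 kb. The part of gene span in the endothelial falls was not tested. By control mean, the share lower over 300 kb was 15.3% for levels under 7, 42.9% from 7 to 9 and 18.0% at 9 and over, beside 0.77%, 0.97% and 1.44% below 10 kb. At 9 and over it was already 15.0% from 100 to 300 kb. With each array centred on its median the share over 300 kb was 28.3%, beside 3.20% below 10 kb. Leaving out single rats gave 23.2% to 26.1% over 300 kb.

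**Figure D3:**
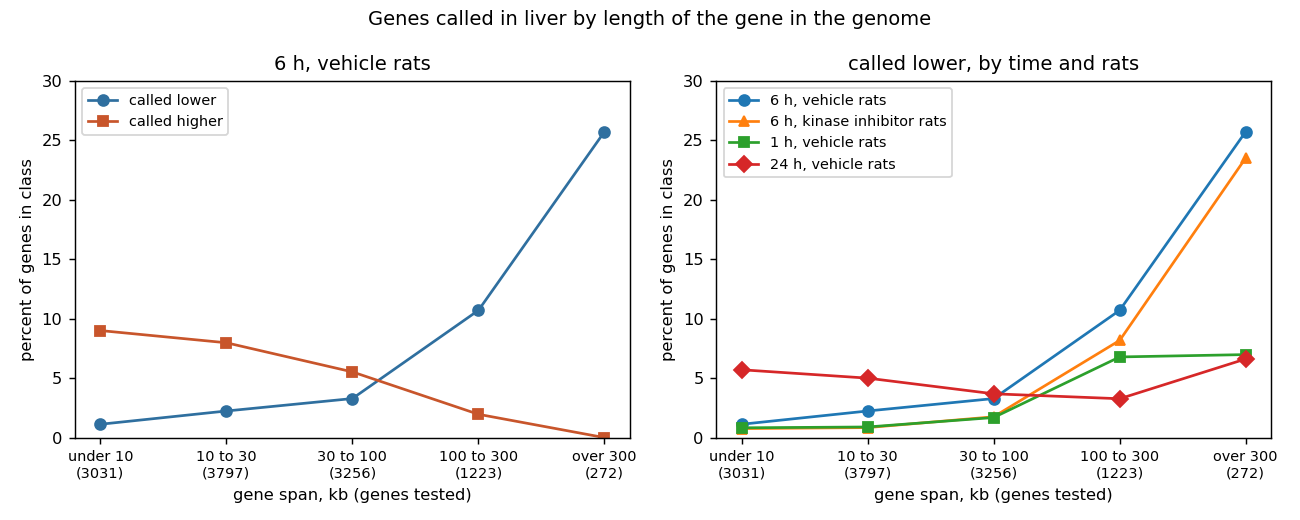
Percentage of tested genes called after oxaliplatin in liver by class of gene span in kb, with the number of genes in each class; the left panel shows genes called lower (blue circles) and higher (orange squares) at 6 h, and the right panel the share called lower at 6 h in vehicle rats and kinase inhibitor rats, at 1 h and at 24 h. At 6 h the share lower goes from 1.12% below 10 kb to 25.7% over 300 kb in vehicle rats.

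Among other large changes, Mybl1, Vxn and H1f2 belonged to no list. Mybl1, a Myb family transcription factor, rose by 1.42 ± 0.21 log2 (limma adjusted p = 8.94e-07), from 6.19 (5.59 to 6.58) to 7.35 (6.92 to 8.99), without overlap. Vxn (vexin) rose by 1.02 ± 0.15 log2, also without overlap, and H1f2, a linker histone, by 0.77 ± 0.14. A2m, a protease inhibitor and the member of the acute phase list that rose, had the largest fitted rise at 2.03 ± 0.56 log2 (limma adjusted p = 0.0114), but its controls ran from 7.51 to 12.91 and its treated rats from 8.50 to 12.86. The highest control was the rat that stood apart, and without it the difference was 2.62 ± 0.53 log2.

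Several lists held few calls or none. By limma 0 members passed among 22 immediate early genes, 18 clock genes, 30 genes of the unfolded protein and integrated stress response, 23 interferon genes and 20 genes of platinum and copper handling. At an unadjusted p under 0.05 they held 1, 3, 5, 2 and 1 members, in each list a smaller share than the 24.2% of all genes. Of 33 genes of phase 1 drug metabolism 1 fell (3.03%, beside 3.67% of all genes), Cyp2c7 by 0.12 log2. Of 35 proliferation genes 1 rose (2.86%, beside 6.72% of all genes), Tyms (thymidylate synthase) by 0.33 log2. Of 15 heat shock genes 2 rose (13.3%), with 14 differences above 0 and 5 members at limma's unadjusted p under 0.05. Of 20 glucocorticoid targets 3 rose (15%), among them Fkbp5 by 0.53 log2. Both shares lay above the 6.72% of all genes. Of 24 acute phase genes 1 rose and 1 fell (4.17% each). In phase 2 conjugation 2 of 30 rose (6.67%) and 1 fell (3.33%), and in bile acid genes 1 of 19 rose (5.26%). A gene that did not pass is not thereby shown to be equal in both arms.

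The effect was compared between the vehicles. With water alone 513 genes were called (4.41%), 324 higher (2.79%) and 189 lower (1.63%). With F68 alone 176 were called (1.51%), 94 higher (0.809%) and 82 lower (0.706%). Each is 4 rats against 4. Of the 513, 483 (94.2%) had the same sign in F68 rats, beside 65.6% of all genes. The difference between the effects was tested directly, and 0 genes passed limma at an adjusted p under 0.05, with 512 (4.41%) at an unadjusted p under 0.05.

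The same contrast could be read in 16 other rats at 6 h, which received sunitinib or sorafenib as the oral dose and share no array with the 16 above. There 799 genes were called (6.88%), 523 higher (4.5%) and 276 lower (2.38%). With each array centred on its median the split was 290 higher and 520 lower, and after a new quantile normalization 381 and 352. Of the 1208 genes called in vehicle rats, 1186 (98.2%) had the same sign, beside 74.4% of all genes, and 477 were called in both sets, all 477 with the same sign. These are 39.5% of the first list and 59.7% of the second. Over all genes the differences correlated with r = 0.64, as a description, since all arrays share a platform and a normalization.

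Values of damage and nucleolar genes are given side by side. Ccng1 rose by 1.22 ± 0.10 log2, Mdm2 by 0.74, Bop1 by 0.39 and Mybl1 by 1.62 in the kinase inhibitor rats, beside 1.36, 0.76, 0.47 and 1.42 in vehicle rats. Cdkn1a rose by 0.95 log2, beside 1.44. p53 targets gave 8 higher of 22 and ribosome biogenesis 15 of 45 (27 in vehicle rats), beside 4.5% of all genes, with 0 lower in both. With sunitinib 10 p53 targets and 17 ribosome biogenesis genes were called higher (medians 0.29 and 0.28 log2), beside 641 of all genes (5.52%). With sorafenib these were 3 and 0 (medians 0.08 and 0.11 log2), beside only 3 of all genes (0.0258%). Among long genes all 70 that were lower in vehicle rats were below 0, and 55 were called lower. Slc9a9 was at -1.72 ± 0.14, Stab2 at -1.18 and Reln at -0.71 log2.

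Several metabolic genes had values nearer 0. Sds was at 0.47, Got1 at 0.31, Acsm2 at 0.05 and Pnpla3 at -1.15 log2 in those rats, and none of these passed there, while Asl (0.35), Fads1 (-0.33) and Acacb (-0.48) did. The difference between the 2 sets of rats was tested for every gene, and 0 passed limma, with 303 (2.61%) at an unadjusted p under 0.05. Within them, sunitinib rats gave 892 calls (7.68%), 641 higher (5.52%) and 251 lower (2.16%). Sorafenib rats gave 33 (0.284%), 3 higher (0.0258%) and 30 lower (0.258%), with 564 genes (4.85%) at an unadjusted p under 0.05. The difference between those effects, added after the counts were seen, again gave 0 genes, with 683 (5.88%) at an unadjusted p under 0.05.

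**Figure D4:**
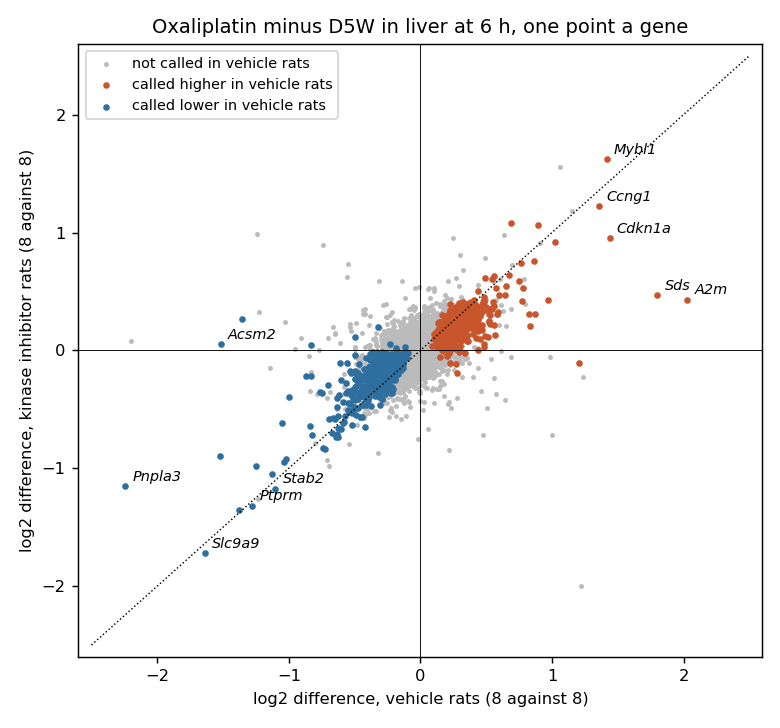
Log2 difference between oxaliplatin and D5W in liver at 6 h for each of the 11620 genes tested, in vehicle rats (horizontal) and in kinase inhibitor rats (vertical), 8 rats against 8 on each axis, with genes called higher in vehicle rats in orange, called lower in blue and the others in grey, and a dotted line where both are equal. The called genes lie mostly in the quadrants of equal sign, with Ccng1, Mybl1 and Slc9a9 near the line and Sds, A2m and Acsm2 nearer 0 on the vertical axis than on the horizontal.

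Against the other times, each with 8 treated and 8 control rats of its own, the genes called at 6 h were shared in part. At 1 h 402 genes were called (3.46%), 185 higher (1.59%) and 217 lower (1.87%). At 24 h 743 were called (6.39%), 200 higher (1.72%) and 543 lower (4.67%). Of the 1208 genes called at 6 h, 78.6% had the same sign at 1 h and 47.8% at 24 h, beside 60.5% and 47.9% of all genes. The effect at 6 h differed from that at 1 h in 150 genes (1.29%), 103 higher (0.886%) and 47 lower (0.404%) at 6 h. With each array centred on its median these were 60 and 70, and after a new quantile normalization 68 and 55. The effect at 24 h differed from that at 6 h in 1064 (9.16%), 847 lower (7.29%) and 217 higher (1.87%) at 24 h. Centred on the median of each array these were 425 lower and 520 higher, and after a new quantile normalization 506 and 310.

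Among the p53 targets called at 6 h, Ccng1, Mdm2, Aen and Phlda3 had a larger effect at 6 h than at 1 or 24 h. Ccng1 was at 0.18 log2 at 1 h, 1.36 at 6 h and 0.48 at 24 h, and both steps passed (limma adjusted p = 9.79e-09 and 8.58e-05). Mdm2 was at 0.13, 0.76 and 0.18 log2, with both steps passing, as they did for Aen and Phlda3. Cdkn1a was at 0.73, 1.44 and 0.89 log2, called at each time, and neither step passed. For the list, the effect was larger at 6 h than at 1 h in 5 of 22 members, beside 0.886% of all genes. It was smaller at 24 h than at 6 h in 6, beside 7.29% of all genes.

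Ribosome biogenesis genes were lower at 24 h than at 6 h. The median of the list was 0.11 log2 at 1 h, 0.25 at 6 h and -0.12 at 24 h. At 24 h 7 of 45 members were called lower and 0 higher, beside 4.67% and 1.72% of all genes. The step from 6 to 24 h was downward in all 45 members and passed in 35, beside 7.29% of all genes. Bop1 went from 0.47 to -0.09 log2 and Mybbp1a from 0.38 to -0.02. RNA polymerase II genes had 8 of 28 members with a smaller effect at 24 h and 0 with a larger one.

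Endothelial markers were called lower in larger number at 1 h. Then 13 of 28 were called lower, beside 6 at 6 h and 3 at 24 h. Of all genes 1.87% were called lower at 1 h, 3.67% at 6 h and 4.67% at 24 h. In 8 markers the effect at 6 h was above that at 1 h, beside 0.886% of all genes. Stab1 was at -0.62 log2 at 1 h, -0.44 at 6 h and -0.17 at 24 h, and Ptprb at -0.78, -0.40 and -0.35, for which the first step passed (limma adjusted p = 0.0251). Stab2 was at -0.63, -1.10 and -0.36 log2, and the second step passed (limma adjusted p = 0.00189).

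Of genes over 300 kb, 6.99% were called lower at 1 h, beside 1.87% of all genes, and 6.62% at 24 h, beside 4.67% of all genes and 5.71% of those below 10 kb. Of the 70 that were lower at 6 h, 63 were below 0 at 1 h. In 37 the effect at 24 h was above that at 6 h by the test, beside 1.87% of all genes. The 70 were chosen by their low values at 6 h, which this step uses again, so that choice raises the count of 37. Among lipogenic genes, 0 of 28 were called lower at 1 h, 7 at 6 h and 14 at 24 h, beside 1.87%, 3.67% and 4.67% of all genes. Called higher were 2, 1 and 0 members at these times. Pnpla3 was at -2.74 log2 at 24 h, and the step from 6 h did not pass. Sds (1.80 to -0.30 log2), Got1 (0.87 to -0.40) and Acsm2 (-1.52 to 0.80) had fitted values of opposite sign at 6 and 24 h, and each step passed.

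**Figure D5:**
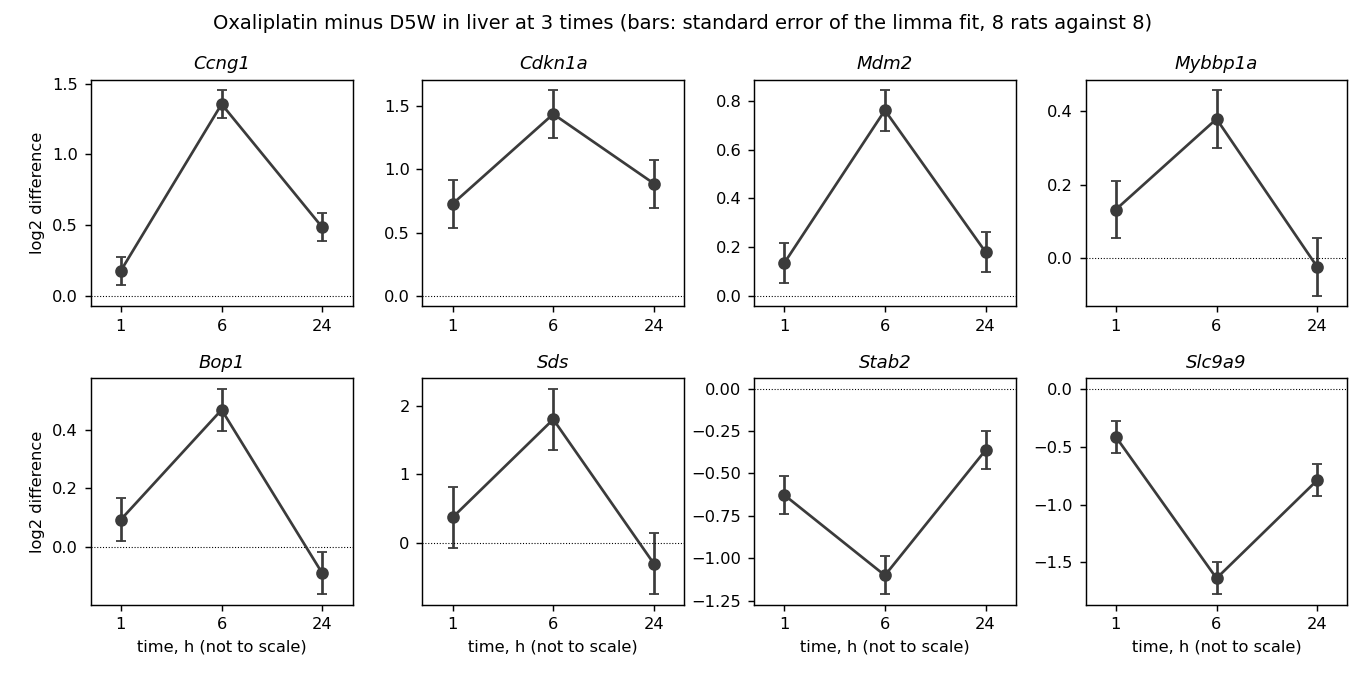
Log2 difference between oxaliplatin and D5W in liver at 1, 6 and 24 h for 8 genes, with bars of 1 standard error of the limma fit and 8 rats against 8 at each time. Ccng1, Cdkn1a, Mdm2, Mybbp1a, Bop1 and Sds are highest and Stab2 and Slc9a9 lowest at 6 h.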

How the data were processed

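Liver RNA of each rat was labelled and hybridised to 1 Affymetrix rat expression array. The deposited log2 values per probe set come from the authors' RMA (robust multi-array average) step, whose version is not given in the sources used here, and which corrects background, quantile-normalizes and summarises probes. Of 31099 probe sets, 57 were controls, 20832 had 1 gene symbol in the platform annotation, 436 several and 9831 none, and the latter kinds were not used. A gene was represented by its probe set with the highest mean in liver, which gave 14218 genes, and 11620 were tested, those whose log2 value exceeded 6 on 4 or more liver arrays. Arrays give no read depth, so their number limits the precision.

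limma 3.58.1 in R 4.3.3 was fitted with a mean for each of the 24 liver groups on 95 arrays, so that all groups shared 1 estimate of the spread. A liver array of the 24 h group given D5W and sorafenib (replicate 1) was left out because its kidney markers (median 12.7) lay above its hepatocyte markers (6.12). p values were adjusted over all genes tested (Benjamini-Hochberg) and genes called at an adjusted p under 0.05. Replicates are separate rats. The fit was tested on simulated data. Gene lists, members and named genes were chosen with earlier results of these data known, and lists are described by counts and medians, with no set test. Named genes are the 15 largest rises and 15 largest falls among called genes, without provisional symbols, then in each list up to 8 called members of largest size or, with no call, up to 3 of highest mean, and the 3 largest calls of each other comparison. Genes named in addition, such as Myc, Polr1a, Utp20 and Ltv1, were chosen after their values were seen. Alternatives varied the samples, the filter, the scaling, the probe set rule, the array weights, the variance prior and the RNA quality term, and left out each rat in turn. Promoter windows were matched by symbol and held 9690 of the genes tested, taking the first start listed for a gene.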

Additional observations from a re-analysis of the deposited data

Results flagged for a closer look

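Among the 30 genes of largest change, a rat stood apart from the other 3 of its group in 9 of 120 groups by Dixon's test, where chance alone flags about 1 group in 20. D5W then F68 replicate 4 stood apart for both Adgre1 and Ccng1, and the other genes each had a different rat. In the group D5W then F68, replicate 4 was high for Adgre1 (10.08, the others 7.19 to 7.61) and for Ccng1 (9.19, the others 8.78 to 8.83). In that group replicate 1 was low for Got1 (11.53, the others 12.41 to 12.51) and replicate 2 for Slc9a9 (6.80, the others 7.19 to 7.27). In D5W then water, replicate 1 was high for Mybl1 (6.58, the others 6.06 to 6.09) and replicate 3 low for H1f2 (10.63, the others 11.32 to 11.45). In oxaliplatin then F68, replicate 3 was high for Vxn (7.88, the others 6.59 to 6.74) and replicate 2 for Pnpla3 (8.79, the others 6.71 to 6.94). In oxaliplatin then water, replicate 2 was high for Phlda3 (10.66, the others 9.79 to 9.92). Over all 98 named genes that were called, 30 of 392 groups held such a rat.

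The effect of oxaliplatin differed between 6 h and 1 h in 150 genes and between 24 h and 6 h in 1064 (limma, adjusted p under 0.05). The 30 genes of largest change were chosen by their effect at 6 h, which both differences use again. Of the 30 genes, the effect at 6 h exceeded that at 1 h by 1.18 log2 in Ccng1, 1.07 in Mybl1, 0.97 in Vxn, 0.82 in Phlda3, 0.74 in H1f2 and 0.57 in Aen. It lay below that at 1 h in Slc9a9 (-1.22), Ptprm (-0.82), Prkcb (-0.81) and Slc8a1 (-0.66). From 6 to 24 h the effect changed by -2.10 log2 in Sds, -1.27 in Got1, -0.91 in Vxn, -0.90 in Mybl1, -0.87 in Ccng1, -0.79 in Phlda3 and -0.62 in Aen. It changed by 2.32 log2 in Acsm2, 2.29 in Rgs16, 1.07 in Ptprm, 0.85 in Slc9a9 and 0.74 in Stab2.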

How the results depend on the processing

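No paired analysis was possible because the treated and control arms are different rats. The labels give no replicate numbers, and those used here follow the order in which the arrays are listed in the series. The count of 1208 genes stayed within 1.5 times itself under 10 alternatives with all 16 rats, from 810 with only the 16 arrays to 1659 with array weights. It was 728 with all liver arrays kept as labelled, 513 with water alone and 176 with F68 alone. All liver arrays as labelled also gave 436 genes for the kinase inhibitor rats (799 in the report), 64 for 6 h against 1 h (150) and 642 for 24 h against 6 h (1064), and array weights gave 1921, 448 and 1678. Leaving out each rat gave 845 to 1316 genes in vehicle rats, the lowest without D5W then water replicate 4, and 765 to 836 in kinase inhibitor rats. It gave 92 to 179 for 6 h against 1 h, 765 to 1166 for 24 h against 6 h, 0 to 1 for the vehicle difference and 0 for the kinase inhibitor difference, which were 0 under the other settings run. Of 98 called named genes, 60 stayed called without each rat and 38 were lost without at least 1. With only the 16 arrays 61 of the 98 passed, and none of the 98 changed direction under any alternative run.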
